A study of Homo sapiens
Mus musculus and Mus musculus and Homo sapiens with 16 samples.

Results

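The genes described here were 9 serpins of MS-5 cells, of 49671 mouse genes counted: Serpinb9, Serpinb9b, Serpinb9e, Serpinb9f and Serpinb9g, which lie together on chromosome 13, and Serpinb2, Serpinb6a, Serpine2 and Serpinf1. They were selected on their mouse expression values in MS-5 cells in coculture and alone, so their values in that comparison are given as a description, with no test. The list had no threshold. MS-5 is a mouse stromal cell line from bone marrow and REC-1 (labelled Rec-1) is a human mantle cell lymphoma (MCL) line. MS-5 cells were seeded 24 h before REC-1 cells were added, and RNA was taken after a further 24 h in supplemented αMEM medium. The groups were MS-5 cells alone (4 libraries), monocultured REC-1 cells (Sep, 4 libraries), REC-1 cells of a coculture that stayed in suspension (Susp, 4 libraries) and the adherent fraction (Adh, 4 libraries). An Adh library holds RNA of adhered REC-1 cells and of MS-5 cells in 1 lysate, and its mouse reads, separated by sequence, are the MS-5 cells in coculture.

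Serpins are a family of proteins that mostly inhibit serine proteases. An inhibitory serpin exposes a flexible reactive centre loop as bait, and cleavage of the loop by a matching protease traps the enzyme in an inactive covalent complex, so the loop sequence decides which protease is caught. Clade B serpins such as Serpinb9 stay mostly inside the cell and protect it from its own or incoming proteases, and the human SERPINB9 protein inhibits granzyme B, the death-inducing protease of cytotoxic lymphocytes. Clade E and F serpins are secreted, and in stroma they act on plasminogen activation, thrombin and the matrix.

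MS-5 libraries carried 10097555 to 17397651 counts alone and 29495404 to 34615602 mouse counts in coculture. REC-1 reads made up 28.2, 26.0, 18.3 and 20.2% of all counts in Adh replicates 1 to 4. Of 10 stromal markers, 9 had a mean above 1 CPM (counts per 1000000 counts of the library) in both groups and Thy1 was at 0, with sums of 9653 to 10304 CPM alone and 9534 to 11016 CPM in coculture. Of 7 macrophage markers, Ptprc, Adgre1 and Itgam were at 0 in all 8 libraries. Cd68, Lyz2 and Cd14 had means of at least 1 CPM in both groups, and Csf1r only in MS-5 cells alone. The list summed to 29.4 to 32.5 CPM alone and 28.0 to 32.4 CPM in coculture. Sums of the mouse T and NK cell, B cell and endothelial markers were at most 0.177 CPM. All 6 human B cell markers had means above 1 CPM in each REC-1 group. Of 5 human T and NK cell markers, only CD3E had means of at least 1 CPM, in each group. That list summed to 2.84 to 6.84 CPM over the REC-1 libraries. The 4 human monocyte markers summed to 0.861 to 2.20 CPM. The labels number the libraries of a group without naming separate cultures, and the study describes its REC-1 expression comparisons as independent experiments. In such bulk samples, fewer cells of a type and less RNA per cell cannot be told apart.

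The loop sequences are shown because this stretch of a serpin meets the protease, and it differs between copies whose levels are compared below. The 5 Serpinb9 genes of the list and their neighbours Serpinb9c and Serpinb9d lie between Serpinb1a and Serpinb6a on chromosome 13 of GRCm38, in an interval of 1160.7 kb (positions 32842092 to 34002794) that holds 16 serpin genes among 40 annotated genes. The stretches printed are protein coding sequence of GENCODE release 21, 5′ to 3′ on the coding strand, from the hinge of the reactive centre loop to the conserved residues after it, each within the last exon. Capitals in Serpinb9d, Serpinb9f and Serpinb9g mark bases that differ from Serpinb9e. The stretches of Serpinb9 and Serpinb9b have other lengths and carry no capitals.
Serpinb9 (chr13:33015693-33015761, plus strand, exon 8 of 8): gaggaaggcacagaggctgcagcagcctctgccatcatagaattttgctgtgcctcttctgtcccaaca
Serpinb9b (chr13:33039796-33039873, plus strand, exon 7 of 7): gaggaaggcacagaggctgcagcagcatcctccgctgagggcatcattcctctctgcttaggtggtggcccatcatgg
Serpinb9d (chr13:33202923-33202997, plus strand, exon 7 of 7): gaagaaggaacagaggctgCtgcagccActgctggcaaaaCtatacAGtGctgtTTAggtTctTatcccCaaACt
Serpinb9e (chr13:33259971-33260045, plus strand, exon 7 of 7): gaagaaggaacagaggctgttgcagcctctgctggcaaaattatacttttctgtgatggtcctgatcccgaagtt
Serpinb9f (chr13:33334491-33334565, plus strand, exon 7 of 7): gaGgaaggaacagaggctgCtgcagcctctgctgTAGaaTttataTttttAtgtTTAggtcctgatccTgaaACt
Serpinb9g (chr13:33495121-33495195, plus strand, exon 7 of 7): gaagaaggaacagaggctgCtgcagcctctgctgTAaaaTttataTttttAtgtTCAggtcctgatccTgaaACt

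The loop stretch took 69 bases in Serpinb9, 78 in Serpinb9b and 75 in Serpinb9d, Serpinb9e, Serpinb9f and Serpinb9g. Serpinb9f differed from Serpinb9e at 14 of the 75 bases, Serpinb9g at 12 and Serpinb9d at 14. Over the whole coding sequence, Serpinb9 and Serpinb9b were identical at 86.24% of aligned bases, while Serpinb9 and Serpinb9e were identical at 82.17%. Serpinb9f and Serpinb9g were the closest pair of the family, with 98.67% identity. Serpinb6a, at the far end of the interval on the minus strand (positions 33917918 to 34002794), shared 67.81% of aligned bases with Serpinb9.

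These copies limit how the counts can be read, since reads that mapped to more than 1 place were dropped by the authors. Of all windows of 1 read length along the transcript, 51.93% in Serpinb9f and 38.31% in Serpinb9g also occurred in another annotated gene, in each other or Gm11397 for both and also in Serpinb9e for Serpinb9f. The share was 16.65% in Serpinb9c (with Gm11385), 9.76% in Serpinb9e and 6.96% in Serpinb9d. It was 0.00% in Serpinb9, Serpinb9b, Serpinb6a, Serpinb2, Serpine2 and Serpinf1. Levels of Serpinb9f and Serpinb9g are therefore uncertain. Overlapping genes add a second limit. No source used here states that reads were counted by strand, and such counting could not separate genes on the same strand. Exons of other genes covered 29.34% of the exon bases of Serpinb6a (Nqo2, Ripk1 and 1110046J04Rik, opposite strand), 12.39% of Serpinb2 (Serpinb10, same strand) and 8.30% of Serpinb9b (Gm36099, opposite strand), and reads from there cannot be told apart by gene.

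Per exon length, the most abundant serpins of the list were the secreted Serpinf1 and the intracellular Serpinb6a. In MS-5 cells alone, mean levels in RPKM (CPM per kilobase of all annotated exons) were 226 for Serpinf1, 159 for Serpinb6a, 111 for Serpinb9e, 14.2 for Serpinb9b, 11.9 for Serpinb9, 7.59 for Serpinb9g, 1.57 for Serpinb9f and 0.625 for Serpinb2, with Serpine2 at 0. Only Serpinb9b and Serpinb9 overlapped between neighbours of this order in MS-5 cells alone. In coculture, the mean of Serpinb9 (11.6 RPKM) stood above that of Serpinb9b (9.90 RPKM), so the means of these 2 changed places. Their libraries only just failed to overlap, with a lowest value of 10.426 RPKM for Serpinb9 and a highest of 10.423 RPKM for Serpinb9b. Serpinb9f (1.06 RPKM) and Serpinb2 (0.489 RPKM) overlapped in coculture. Serpinb9e therefore exceeded Serpinb9, the granzyme B inhibitor of the family, in every library of both groups.

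The order depends on the length used. When CPM were divided by the unshared windows of read length of 1 coding transcript per gene, Serpinb6a (613 CPM per kilobase) stood above Serpinf1 (308 CPM per kilobase) in MS-5 cells alone. On the same scale Serpinb9e, with 129.6 CPM per kilobase, stayed between Serpinf1 and the rest.

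**Figure D1:**
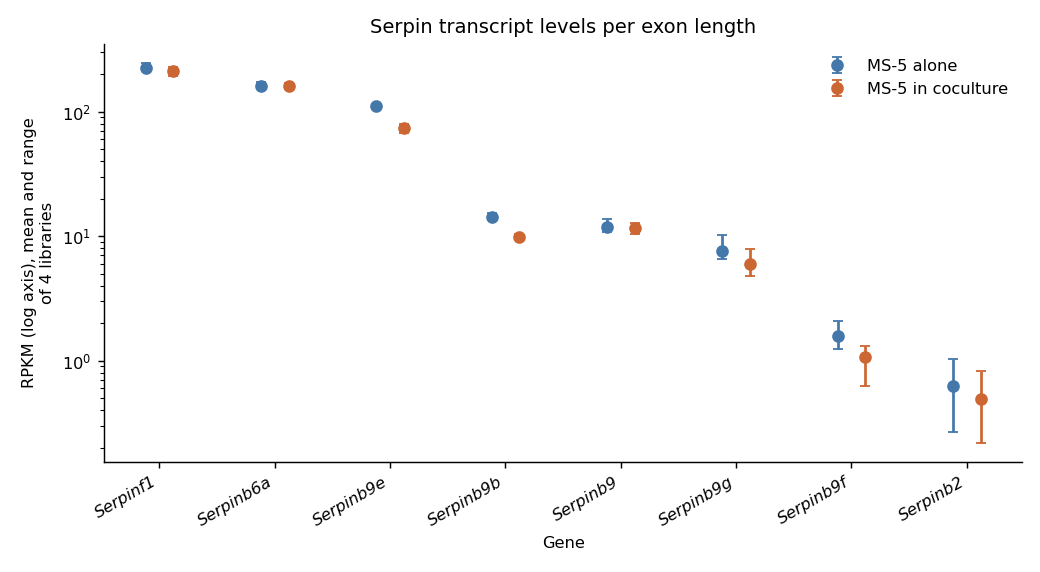
Level of 8 serpins in RPKM on a log axis, for MS-5 cells alone (blue) and in coculture (orange); points are means and bars span the lowest to the highest of 4 libraries, and Serpine2 is left out because it is at 0 RPKM alone. Serpinf1, Serpinb6a and Serpinb9e lie above 67 RPKM in both groups, and the mean of Serpinb9b moves from above that of Serpinb9 alone to below it in coculture.

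Among the Serpinb9 genes, Serpinb9e and Serpinb9b were lower in coculture, while Serpinb9 differed by less than the spread between its libraries. Serpinb9e had 207, 211, 221 and 214 CPM in replicates 1 to 4 of MS-5 cells alone and 147, 129.8, 152 and 136 CPM in coculture. Every coculture library was below every library alone. The log2 fold change of coculture over alone was -0.59 (SE 0.06), a 1.51-fold lower level.

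Serpinb9b had 47.8, 51.2, 45.1 and 46.4 CPM alone and 32.7, 34.9, 33.4 and 31.8 CPM in coculture. The groups did not overlap here either, and the log2 fold change was -0.52 (SE 0.07). Serpinb9 itself had 48.0, 38.2, 42.6 and 37.7 CPM alone and 42.9, 36.4, 44.4 and 38.3 CPM in coculture. The ranges of its groups overlapped, with a log2 fold change of -0.04 (SE 0.09). Serpinb9 and Serpinb9b are neighbouring serpin genes (Serpinb9 at positions 33003250 to 33017957 and Serpinb9b at 33027416 to 33041884 of chromosome 13).

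Serpinb9g had 13.1, 12.5, 12.96 and 19.9 CPM alone and 9.27, 9.87, 15.2 and 11.5 CPM in coculture. Replicate 4 alone and replicate 3 in coculture stood above the others of their groups, the groups overlapped, and the log2 fold change was -0.35 (SE 0.17), with values from -0.51 to -0.16 when 1 library was left out. Serpinb9f was counted at 2.58, 2.39, 3.99 and 3.05 CPM alone and 2.24, 2.18, 1.21 and 2.51 CPM in coculture. It overlapped only between the lowest library alone and the highest in coculture, and its log2 fold change was -0.58 (SE 0.26). Both carry the uncertainty of near-identical copies given above.

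The members outside the Serpinb9 group overlapped between coculture and alone or were hardly present. Serpinb6a, an intracellular inhibitor of proteases such as cathepsin G, had 929, 869.7, 829 and 815 CPM alone and 924, 839, 866 and 857 CPM in coculture. Its groups overlapped and the log2 fold change was 0.02 (SE 0.05). Serpinf1, the secreted non-inhibitory serpin PEDF that restrains blood vessel growth, had 522, 519.6, 579.6 and 509.9 CPM alone and 473, 515, 458 and 537 CPM in coculture. These groups overlapped too, with a log2 fold change of -0.10 (SE 0.06).

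Serpinb2, the plasminogen activator inhibitor PAI-2, was near the limit of detection. It was counted at 2.02, 0.796, 2.43 and 0.626 CPM alone and 1.95, 1.43, 0.518 and 0.699 CPM in coculture, against a floor of 3 counts that corresponded to 0.174 to 0.299 CPM alone and 0.0863 to 0.102 CPM in coculture. Replicates 1 and 3 were high alone and replicates 1 and 2 were high in coculture. The log2 fold change was -0.42 (SE 0.46), and it was -0.81 without Adh replicate 1 and -0.036 without MS-5 alone replicate 3. Coculture replicates 1 and 2 also held the larger shares of REC-1 reads, 28.2 and 26.0% against 18.3 and 20.2%, and the part of that share in these values was not tested.

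Serpine2, protease nexin-1, an inhibitor of thrombin and plasminogen activators, was at 0 counts in all 4 libraries of MS-5 cells alone and had 2 counts in 1 coculture library. Its level alone was thus at most the floor of 0.174 to 0.299 CPM, and it was too low to fit.

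**Figure D2:**
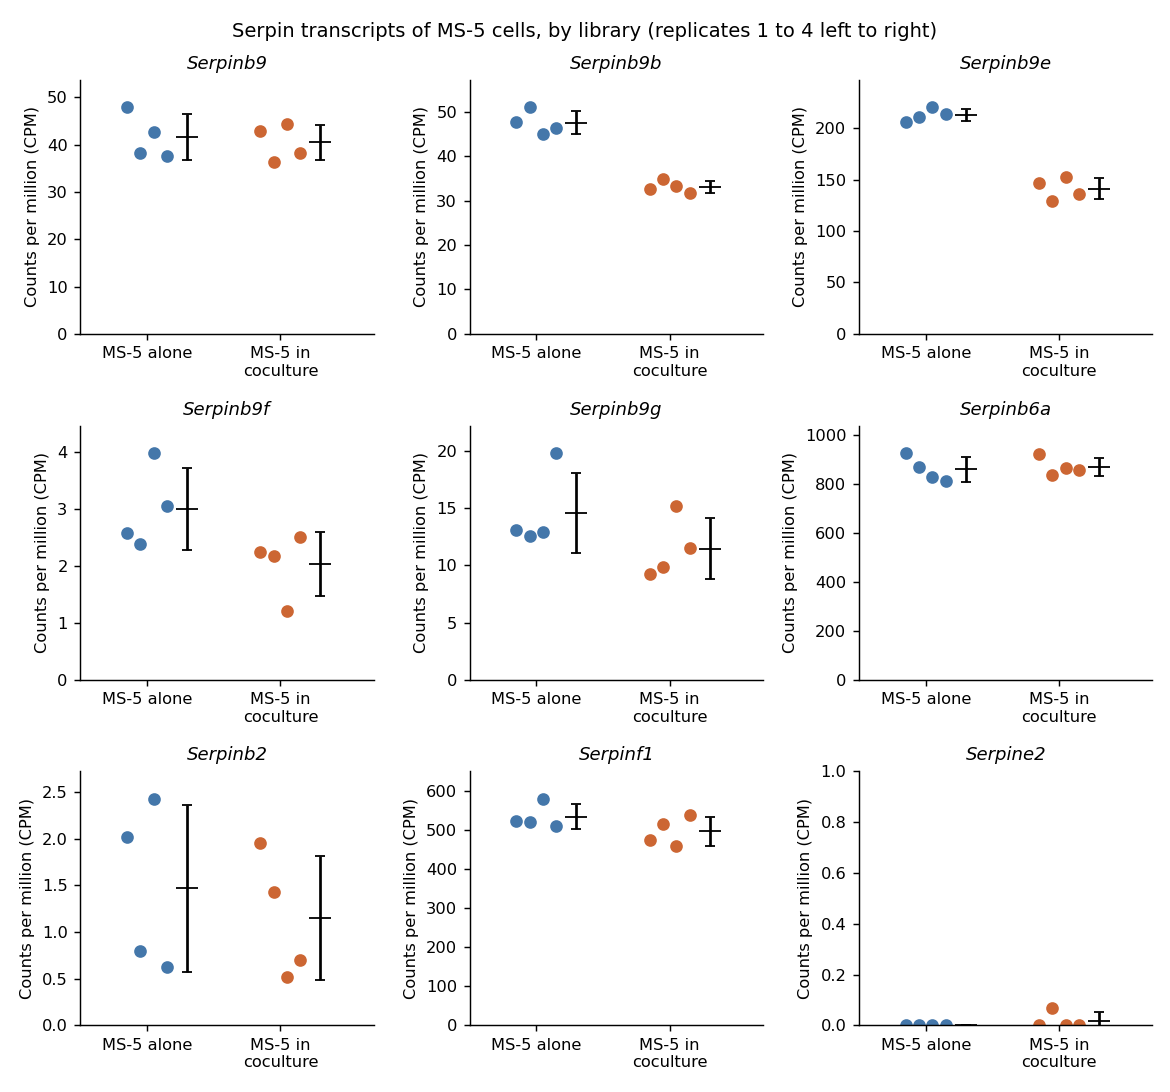
CPM of the 9 serpins in each library of MS-5 cells alone (blue) and in coculture (orange), replicates 1 to 4 from left to right, with the mean and SD in black and a separate axis from 0 for each gene. Serpinb9b and Serpinb9e show no overlap between groups, Serpinb9 and Serpinb6a overlap, and Serpine2 lies at or near 0 CPM.

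A gene was taken as called when its p-value in edgeR's quasi-likelihood test, adjusted over all genes by the Benjamini-Hochberg method, was 0.05 or less and its level differed by 1.5-fold or more. Of the 9 members, 8 passed the filter on low counts and 1, Serpinb9e, met this rule, where 0.205% of all 12201 genes did. Serpinb9b met the adjusted p-value alone, as did 0.77% of genes. In 2 members every coculture library was below every library alone, which held for 3.68% of genes. Nothing is read from these shares, since the same values were known when the members were listed. Serpinb9e lay just inside the 1.5-fold bound, and Serpinb9f (1.498-fold lower) and Serpinb9b (1.43-fold lower) just outside it. The median log2 fold change of the 8 fitted members was -0.38, with 7 below 0, beside a median of -0.0017 and 50.4% below 0 over all genes. Nothing is read from that difference either, since the members were listed on these same values.

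The neighbours Serpinb9c and Serpinb9d, which were not listed, also had means below those alone, by differing amounts. Serpinb9d had 10.4, 13.7, 13.8 and 13.4 CPM alone and 9.60, 7.69, 9.23 and 7.21 CPM in coculture. Its groups did not overlap, and its log2 fold change of -0.60 (SE 0.13) missed the threshold (edgeR quasi-likelihood test, adjusted p = 0.0523). Serpinb9c had 9.07, 12.9, 12.96 and 13.7 CPM alone and 8.95, 8.24, 13.8 and 12.2 CPM in coculture, with a log2 fold change of -0.17 (edgeR adjusted p = 0.778, SE 0.17). All 7 Serpinb9 genes had fold changes below 0, between -0.04 and -0.60, with a median of -0.52. Over all genes, 50.4% were below 0. Nothing is read from the 7 together, since 5 of them are members listed on these same values. The value of Serpinb9 was small enough to change sign, to 0.03 without MS-5 alone replicate 1 and 0.01 without Adh replicate 2.

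Along the interval, fold changes differed between neighbours. Of its 16 serpin genes, 12 could be fitted, of which 9 were below 0, with a median of -0.35. Over all genes, the median was -0.0017 and 50.4% were below 0. That difference is not read as a result, since the interval holds members listed on these same values. Serpinb6b, the serpin before Serpinb9, had means of 23.0 ± 3.63 CPM alone and 18.1 ± 2.53 CPM in coculture (SD, n = 4 each) and a log2 fold change of -0.34 (edgeR adjusted p = 0.276, SE 0.12). Serpinb1a, an inhibitor of neutrophil elastase and cathepsin G, and Serpinb1b lay close to 1 CPM, with log2 fold changes of 0.20 (edgeR adjusted p = 0.863, SE 0.30) and 0.14 (edgeR adjusted p = 0.927, SE 0.33). Their direction reversed when single libraries were left out.

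**Figure D3:**
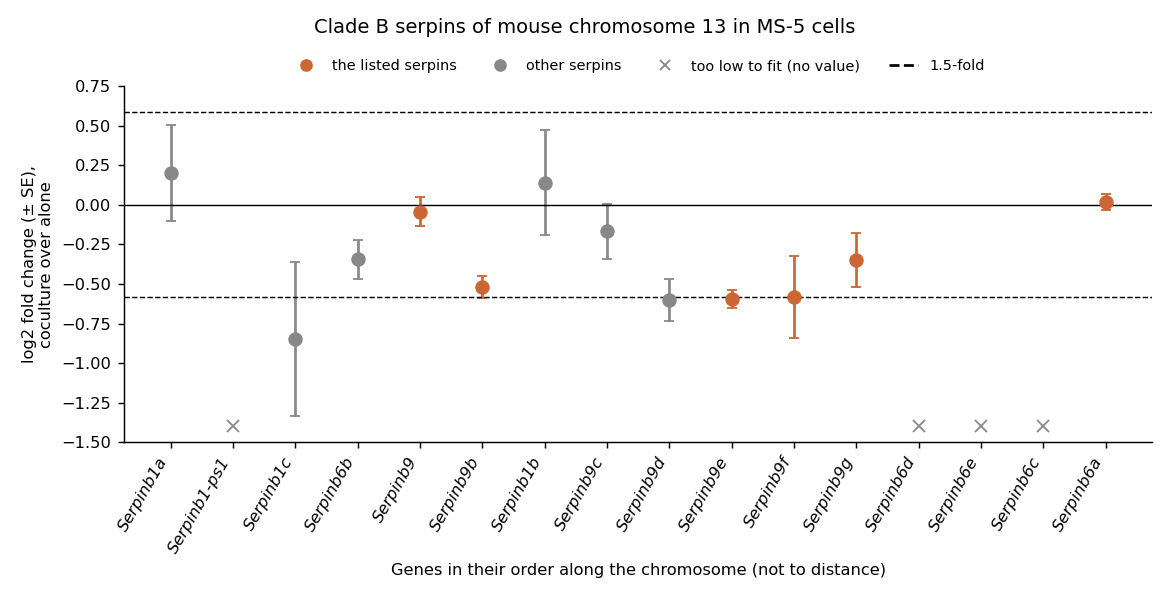
log2 fold change of MS-5 cells in coculture over alone, with SE, for the 16 serpin genes of the chromosome 13 interval in their order; dashed lines mark 1.5-fold and crosses at the bottom mark genes too low to fit. Values from Serpinb9d to Serpinb9f lie near the lower line, between -0.58 and -0.60, while Serpinb9 (-0.04) and Serpinb6a (0.02) lie near 0.

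Of the 59 mouse serpin genes outside the list, 37 were at 0 in all 8 libraries and 12 were tested. None of the 12 was called by edgeR's quasi-likelihood test, where 0.205% of all genes were. An unadjusted p-value below 0.05 was found in 3 of the 12 and in 1374 of all 12201 genes. DESeq2 called 1 of the 12, Serpinb9d, and 38 of all 12201 genes. The median log2 fold change of the 12 was -0.13. Serpinh1, the collagen chaperone HSP47, had 794 ± 82.1 CPM alone and 789 ± 86.9 CPM in coculture (SD, n = 4 each), a log2 fold change of -0.01 (SE 0.08) whose sign changed with the normalization. Serping1, the C1 inhibitor of complement, had 45.5 ± 3.20 and 44.4 ± 4.505 CPM, with a log2 fold change of -0.03 (SE 0.08). Serpinb8, an intracellular inhibitor of furin, had 19.2 ± 3.45 and 23.7 ± 3.50 CPM and the highest log2 fold change of the 12, 0.30 (edgeR adjusted p = 0.398, SE 0.13). Serpine3 had a log2 fold change of -0.10 (SE 0.34) at 1.51 CPM alone.

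The proteases and receptors with which serpins act were read from a list of 30 mouse genes, of which 14 were tested and 1 was called, against 0.205% of all genes. Plaur, the cell surface receptor of urokinase, had 37.5, 47.1, 50.6 and 43.4 CPM alone and 30.7, 34.5, 23.9 and 28.0 CPM in coculture. It fell in coculture, with no overlap between groups and a log2 fold change of -0.61 (edgeR quasi-likelihood adjusted p = 0.0160, SE 0.11). The list was drawn up with earlier results of these data known, so the call of Plaur is not an independent test. With 3 libraries in a group the fold kept its direction but the call could be lost. The log2 fold change was -0.58, -0.53 and -0.62 without MS-5 alone replicates 2, 3 and 4 (edgeR adjusted p = 0.0792, 0.0940 and 0.0573) and -0.52 without Adh replicate 3 (edgeR adjusted p = 0.0658). The plasminogen activators themselves showed log2 fold changes of 0.22 (edgeR adjusted p = 0.616, SE 0.14) for Plat at 17.0 ± 4.67 CPM alone and 0.48 (edgeR adjusted p = 0.722, SE 0.42) for Plau at 0.807 ± 0.495 CPM alone (SD, n = 4 each). With 1 library left out these ran from 0.13 to 0.43 for Plat and from 0.12 to 0.83 for Plau.

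Granzyme B, the protease that Serpinb9 is known to inhibit, was not detected in the stroma, with Gzmb at 0 counts in all 8 mouse libraries, as were Gzma, Gzmc and Gzmf. Gzme had the most counts among the granzymes, with 76, 73, 125 and 133 counts alone and 204, 216, 348 and 245 in coculture. Scaled to depth these were 7.55 ± 2.11 and 7.79 ± 1.66 CPM (SD, n = 4 each), a log2 fold change of 0.05 (edgeR adjusted p = 0.957, SE 0.19). Gzme belongs to a group of closely related granzyme genes, so its level is uncertain. Gzmd had 1 count in 1 library, and Gzmk and Gzmm had at most 9 counts in any library. In the human reads of REC-1 cells, GZMB was too low to fit, with means of 0.647 CPM in Sep, 0.550 CPM in Susp and 0.332 CPM in Adh. GZMH had means of 1.36, 1.57 and 1.46 CPM in these groups and was not called in any contrast. GZMA, GZMK and GZMM had at most 2 counts in any library.

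The human reads of the REC-1 cells were not used to list the mouse genes and allowed tests of the human counterparts. Of 42 human SERPIN genes, 22 were at 0 throughout and 11 were tested in 1 model of the Sep, Susp and Adh groups. SERPINB9, the granzyme B inhibitor, had 38.8, 35.8, 35.2 and 36.3 CPM in Sep, 39.2, 36.8, 40.2 and 39.8 CPM in Susp and 41.6, 41.5, 42.1 and 37.5 CPM in Adh libraries. Means were highest in Adh and lowest in Sep, the groups overlapped, and no contrast passed the threshold. The log2 fold change was 0.16 (edgeR adjusted p = 0.344, SE 0.09) for Adh over Sep, 0.06 (edgeR adjusted p = 0.723, SE 0.09) for Adh over Susp and 0.09 (edgeR adjusted p = 0.586, SE 0.09) for Susp over Sep.

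SERPINE2, whose mouse counterpart MS-5 cells lacked, was present in REC-1 cells, with 20.1 ± 1.61 CPM in Sep, 18.9 ± 1.37 CPM in Susp and 21.8 ± 2.86 CPM in Adh (SD, n = 4 each). Its groups overlapped, and the log2 fold changes were 0.12 (edgeR adjusted p = 0.637, SE 0.12) for Adh over Sep and 0.20 (edgeR adjusted p = 0.375, SE 0.12) for Adh over Susp. In the Adh lysates, the 4 libraries together held 841 human counts for SERPINE2 beside 2 mouse counts for Serpine2. The reverse held for the stromal genes, with 113018 mouse counts for Serpinb6a beside 117 human counts for SERPINB6, 63999 for Serpinf1 beside 37 for SERPINF1, and 148 for Serpinb2 beside 0 for SERPINB2. For the Serpinb9 pair both species contributed, with 5273 mouse and 1605 human counts. These raw counts also carry the share of each species in the lysates. Scaled within each species, the Adh means were 40.5 CPM for Serpinb9 and 40.7 CPM for SERPINB9.

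One human serpin was called between adhered and monocultured cells. SERPIND1, heparin cofactor II, an inhibitor of thrombin, had 3.31, 3.77, 5.96 and 4.15 CPM in Sep, 2.26, 2.40, 2.51 and 2.28 CPM in Susp and 2.10, 2.12, 2.57 and 2.31 CPM in Adh. All Adh and all Susp libraries were below all Sep libraries. It fell in Adh against Sep with a log2 fold change of -0.91 (edgeR quasi-likelihood adjusted p = 0.0470, SE 0.24), 1 of the 2.4% of genes called in this contrast, and its change of -0.85 in Susp against Sep missed the threshold (edgeR adjusted p = 0.0917, SE 0.23). The 2 contrasts share the Sep libraries. The call sat at the threshold, and was lost in 10 of 12 settings with a library left out, holding only without Sep replicate 1 or Susp replicate 2. Where it was lost, adjusted p-values ran from 0.0622 without Susp replicate 1 to 0.157 without Sep replicate 3. The log2 fold change stayed between -1.02 and -0.72 in all 12 settings.

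SERPINF1 had 2.36, 2.34, 1.26 and 2.15 CPM in Sep, 1.13, 1.84, 1.64 and 1.01 CPM in Susp and 0.977, 0.770, 0.899 and 1.15 CPM in Adh. Adh libraries were below all Sep libraries, with a log2 fold change of -1.10 (SE 0.35) that missed the threshold (edgeR adjusted p = 0.0855). In the Adh lysates the counts behind these values were 13, 8, 7 and 9. No SERPIN gene was called by edgeR in Adh against Susp, where 0.778% of genes were. DESeq2 called 0 SERPIN genes there and 282 of all 12861 genes. In edgeR, 1 of the 11 tested had an unadjusted p-value below 0.05, as did 2316 of all 12861 genes. No SERPIN gene was called by edgeR in Susp against Sep, where 0.731% of genes were, and 1 was called by DESeq2, SERPIND1 (adjusted p = 0.0277). In that contrast DESeq2 called 172 of all 12861 genes. In edgeR, 1 of the 11 had an unadjusted p-value below 0.05, as did 2145 of all 12861 genes.

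**Figure D4:**
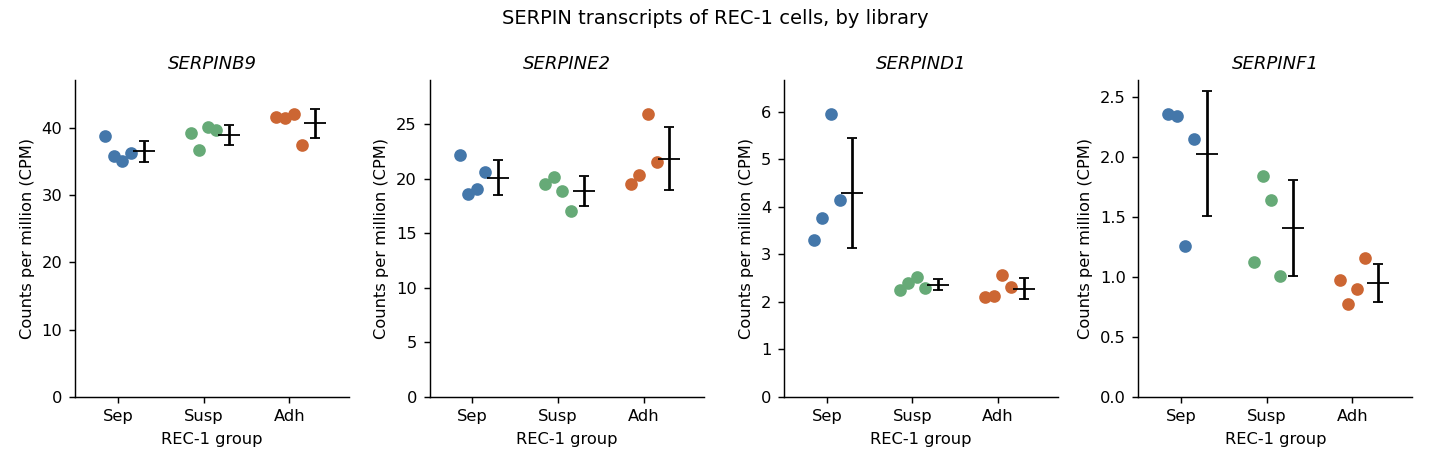
CPM of 4 SERPIN genes in each REC-1 library of the Sep (blue), Susp (green) and Adh (orange) groups, replicates 1 to 4 from left to right, with the mean and SD in black and a separate axis from 0 for each gene. SERPINB9 and SERPINE2 overlap between groups, and all Adh libraries of SERPIND1 and SERPINF1 lie below all Sep libraries.

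The other tested SERPIN genes of REC-1 cells had wide errors. SERPINA9, a serpin of germinal centre B cells, had 12.1 ± 2.30 CPM in Sep and 12.1 ± 3.32 CPM in Adh, with a log2 fold change of 0.01 (SE 0.19). SERPINI1, neuroserpin, had 3.42 ± 1.28 CPM in Sep, 4.53 ± 0.208 CPM in Susp and 2.67 ± 0.972 CPM in Adh (SD, n = 4 each), with a log2 fold change of -0.78 for Adh over Susp (edgeR adjusted p = 0.198, SE 0.29). SERPINB6 had means of 2.54 to 3.20 CPM, and SERPINB8, SERPINB9P1 and SERPINA11 had means of at most 1.55 CPM in any group. Of 27 human proteases and partners, 13 were tested and none was called in the 3 contrasts by edgeR or DESeq2. For Adh over Sep, Adh over Susp and Susp over Sep, edgeR called 2.4, 0.778 and 0.731% of all genes. DESeq2 called 527, 282 and 172 of all 12861 genes. In the same order, 2, 1 and 3 of the 13 had an unadjusted edgeR p-value below 0.05. Of all 12861 genes, 2596, 2316 and 2145 did. PLAU had means of 0.608 CPM in Susp and 1.11 CPM in Adh, with no overlap and a log2 fold change of 0.86 (edgeR adjusted p = 0.218, SE 0.35). PLAT had a log2 fold change of -0.22 (edgeR adjusted p = 0.876, SE 0.65) for Adh over Susp.

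The mouse genes with the pattern most like Serpinb9 were found among 11241 genes with a mean of at least 1 CPM, by the root mean square difference between centred log2 CPM values over the 8 mouse libraries. They were Ndufa3 (0.0509), Gm8186 (0.0548), Fam175b (0.0566), 1810034E14Rik (0.0570) and Impact (0.0618), where the median gene differed by 0.182. Because Serpinb9 varied little, this measure favours genes that varied little too. Serpine2 had no values to compare.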

How the data were processed

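Gene counts from RNA-seq of 16 libraries were analysed. Per the labels and methods, poly-A libraries were sequenced as 101-base pairs. The authors separated human and mouse reads with Xenome, aligned them with STAR 2.5.1b to GRCh38 and GRCm38, kept unique alignments and counted genes with featureCounts (Subread 1.5.2). The deposited counts were neither normalized nor filtered, and 20 columns of other samples were not used. Gene values from 1 to 20 were mostly even (65.0 to 79.2% per library), so mates may have been counted separately and no counting intervals are given. The floor of 3 counts covers counting error only.

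Counts were scaled by TMM and compared with edgeR 4.0.16 (filterByExpr, quasi-likelihood test in its earlier form) in R 4.3.3, separately for mouse (12201 genes) and human counts (12861 genes). Code was tested on simulated data. Named genes were the members, tested serpins with a mean of at least 1 CPM in a group, called genes, granzymes and plasminogen activators, and 5 genes most like Serpinb9. One gene that this rule covers is not reported here. Members and lists were chosen with earlier results of these data known. GENCODE release 21 gave mouse positions and sequences. Alternatives were DESeq2 1.42.0, upper-quartile normalization, no low-count filter, counts thinned to the lowest depth, calls without a fold minimum, the replicate number as a term, each library left out and, chosen after seeing the data, halved counts.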

Additional observations from a re-analysis of the deposited data

Results flagged for a closer look

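In 6 of 74 groups of 4 libraries checked, 1 library stood apart from the other 3 by Dixon's test, which chance gives in about 1 of 20 groups. In MS-5 cells alone, Serpinb9g stood at 19.9 CPM in replicate 4 against 12.5 to 13.1 CPM in the others. In replicate 1 of the same group, Serpinb9c was at 9.07 CPM against 12.9 to 13.7 CPM, and Serpinb9d at 10.4 CPM against 13.4 to 13.8 CPM. In REC-1 Susp libraries, SERPINB6 was at 4.73 CPM in replicate 2 against 2.52 to 2.85 CPM, and SERPINB8 at 0.580 CPM in replicate 3 against 1.34 to 1.48 CPM. SERPINB9 was at 37.5 CPM in Adh replicate 4 against 41.5 to 42.1 CPM.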

How the results depend on the processing

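The call of Serpinb9e sat on the 1.5-fold bound, so the number of members called was 0 rather than 1 with upper-quartile normalization, no low-count filter or thinning, and 0 to 1 with a library left out. It was 0 without MS-5 alone replicate 3, Adh replicate 2 or Adh replicate 4, where the log2 fold change of Serpinb9e was -0.57, -0.55 and -0.57. Over all alternatives that value ranged from -0.63 to -0.55, and Serpinb9b ranged from -0.54 to -0.48. Outside the members, 1 serpin rather than 0 was called with DESeq2, and 0 to 1 with a library left out. That serpin was Serpinb9d, with adjusted p-values of 0.0033 by DESeq2, 0.0197 without MS-5 alone replicate 1 and 0.0492 without Adh replicate 1 in edgeR. The call of Plaur gave 0 to 1 called partners with a library left out. The call of SERPIND1 in Adh against Sep gave 0 with upper-quartile normalization (adjusted p = 0.0509), no low-count filter (0.102) or thinning (0.0717), and 0 to 1 with a library left out. DESeq2 called 1 serpin in Susp against Sep. The labels do not say what a replicate number marks. Deviations of same-numbered mouse libraries correlated at 0.286, 0.083, 0.033 and 0.161, and as not all were above 0.1 the numbers were not treated as pairs. With the replicate block, Serpinb9d was called (adjusted p = 0.0107), 1 serpin rather than 0, and the number of mouse genes called rose from 25 to 45. Small values changed sign. Serpinh1 was at 0.0018 with upper-quartile normalization, 0.0060 without the filter and 0.0061 after thinning, and SERPINA9 in Adh against Sep was at -0.0016 with the replicate block. With a library left out, log2 fold changes spanned -0.082 to 0.056 for Serpinh1, -0.0083 to 0.32 for Serpinb1a, -0.039 to 0.63 for Serpinb1b, -0.42 to 0.17 for Serpine3, -0.081 to 0.026 for Serping1 and -0.091 to 0.25 for Gzme. In Adh against Sep they spanned -0.29 to 0.21 for SERPINA11, -0.15 to 0.17 for SERPINA9, -0.26 to 0.55 for SERPINB6, -0.089 to 0.39 for SERPINB8 and -0.21 to 0.40 for SERPINB9P1, and in Adh against Susp -0.60 to 0.21 for SERPINB6. The cause of these changes was not tested. At a few CPM or less, depth limited precision, with SEs of 0.26 for Serpinb9f and 0.46 for Serpinb2.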
